A study of Mus musculus with 24 samples.

Results

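Intact mouse embryos at the 8-cell stage were compared directly with intact blastocysts, so that each value is the net change over compaction, the morula stage and cavitation together. The comparison rests on 7 of the 24 embryos sequenced: 4 intact 8-cell embryos and 3 intact blastocysts, taken by their labels. All came from the ICR strain by in vitro fertilization and were cultured under 6% CO2 and 5% O2; none was genetically altered or given a drug. The other embryos were intact morulae and embryos grown from single blastomeres after separation. They entered the gene filter, the scaling and the shared estimate of spread, but not the means of the compared groups. Each library held the polyadenylated RNA of 1 whole embryo, amplified by Smart-seq2, which makes full-length cDNA from small inputs with an oligo(dT) primer. The labels gave neither a batch nor the parents of an embryo.

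The 8-cell mouse embryo is made of blastomeres that still look alike and that have recently begun to transcribe their own genome while clearing RNA left by the oocyte. By the blastocyst stage the outer cells have become trophectoderm, a polarised epithelium that pumps fluid into a cavity and later forms the placenta. The inner cells are sorting into epiblast, which gives rise to the fetus, and primitive endoderm, which gives rise to the yolk sac. Because a whole embryo is 1 sample here, fewer cells of a type and less RNA per cell cannot be told apart, and no level is a level per cell. Values are in CPM, the common scale of read counts divided by the library total, here after correction for composition, so each is a share of the embryo's measured RNA and not an absolute amount.

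The 8-cell libraries were deeper, with 26282853 to 38514899 counted reads against 11316911 to 12653788 in blastocysts, so depth and stage cannot be told apart in the unthinned counts. At an equal depth of 11316911 reads, 12514 ± 496 genes were detected in 8-cell embryos and 14623 ± 783 in blastocysts (mean ± SD, as in all that follows, n = 4 and n = 3). The ranges did not overlap, and the exact permutation p of 0.0571 (two-sided) was the smallest that 4 against 3 embryos can give. Composition correction used factors below 1 for every 8-cell embryo and above 1 for every blastocyst. Each stage held 2 embryos with Ddx3y and Eif2s3y, both Y-linked, at 66.8 CPM or more; in the other embryos neither exceeded 0.108 CPM. Of the marker genes of cells that could cling to an embryo, 9 of 16 cumulus genes, 6 of 14 blood genes, 4 of 14 sperm genes and 4 of 12 fibroblast genes had 0 counts in all 7 embryos, among them Fshr, Ptprc, Tnp1, Col1a2 and Col3a1. The summed CPM of cumulus genes ran from 0.0834 to 5.92 in 8-cell embryos and 3.64 to 11.2 in blastocysts, and that of blood genes from 15.5 to 36.4 and 1.19 to 16.9. Fibroblast genes summed to 0 to 0.793 and 3.03 to 7.97 CPM. Vim and Thy1 were most of the blastocyst mean and had 0 counts in every 8-cell embryo. Sperm genes summed to 3.13 to 25.4 and 44.9 to 50.9 CPM, on average mostly Odf2, which is also a centrosome component. Of tested members, 2 of 7 sperm genes (28.6%, Odf2 and Tnp2) and 2 of 5 fibroblast genes (40%, Vim and Thy1) were called higher. The share over all tested genes was 15%. The calls of Odf2, Tnp2, Vim and Thy1 were lost in 3, 9, 1 and 7 other settings. None of the 2 cumulus and 4 blood genes tested was called. The part of such cells in the results below was not tested.

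Of 15875 genes tested, 4272 (26.9%) differed between the stages at an adjusted p under 0.05 (edgeR's quasi-likelihood test, Benjamini-Hochberg over all tested genes). Of these, 2384 (15% of the tested genes) were higher in blastocysts and 1888 (11.9%) were lower. The median fitted fold of called genes was 12.8 for higher genes and 3.45 for lower genes. These medians include 669 higher and 106 lower genes with 0 counts throughout the other stage, whose fitted folds the counts do not fix. Embryos of the 2 stages did not overlap in 2179 of the higher and 1775 of the lower genes. The calls came from the same embryos, so these counts are no further support, and the share over all tested genes is not given here. A change of over 2-fold was called for 2306 genes (14.5%), and 968 genes (6.1%) kept the 95% interval of their fold change between 2-fold lower and 2-fold higher. The share of calls that were higher was 55.8% here and 71.5% in a fit on the deposited TPM values (log2 of TPM + 1, limma), whose median log2 fold change over all genes was 0.45 against 0.23. A fit restricted to the 7 compared embryos tested 13125 genes and gave 46.5%.

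**Figure D1:**
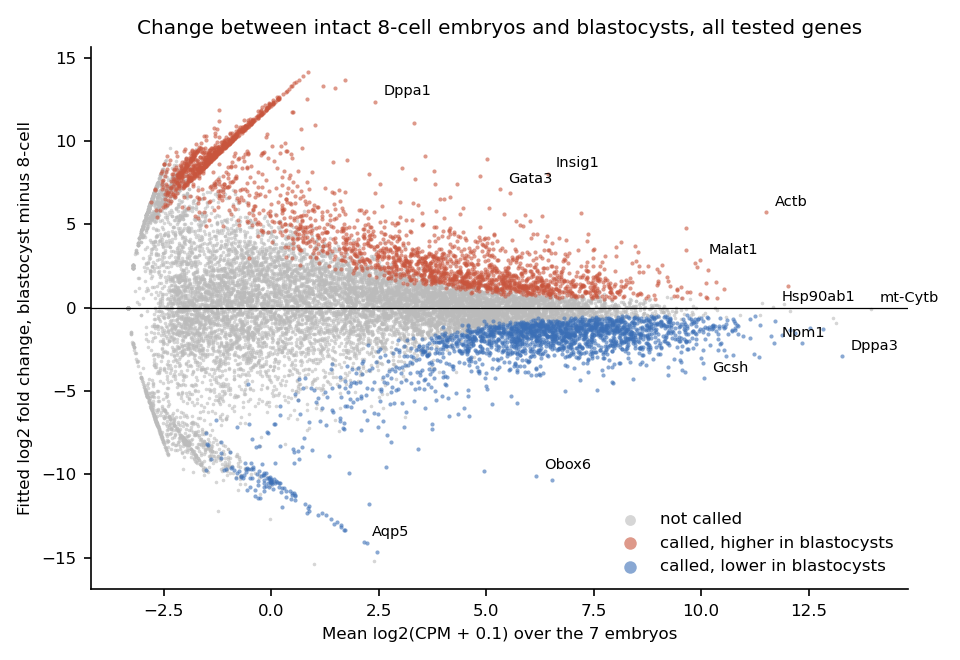
Fitted log2 fold change (blastocyst minus 8-cell) against the mean log2(CPM + 0.1) over the 7 embryos, 1 point for each of the 15875 tested genes, coloured by call. The 2384 higher genes lie above 0 and the 1888 lower genes below it. At 0 counts were 669 of the higher genes in every 8-cell embryo and 106 of the lower genes in every blastocyst.

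Many rises began from no detected RNA: 669 of the higher genes had 0 counts in all 4 8-cell embryos, whereas 106 of the lower genes had 0 counts in all 3 blastocysts. For such genes the fold is a lower bound, set against 3 counts in the smallest library of the group with none (0.125 CPM at the 8-cell stage, 0.223 CPM at the blastocyst stage). These bounds cover counting error only, since the libraries carried no molecular identifiers.

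Trophectoderm genes made up 1 of the groups with the most rises. Of 30 tested, 19 rose (63.3%, against 15% of all genes) and 1 fell (3.33%, against 11.9%). The median log2 fold change was 5.28 against 0.23 over all tested genes. Gata3, a transcription factor of the trophectoderm, had 6.35, 10.9, 3 and 1.75 CPM in 8-cell embryos 1 to 4 and 1051, 605 and 607 CPM in blastocysts 1 to 3. The stages were far apart, and the log2 rise was 7.10 ± 0.63 (SE, adjusted p = 2.93e-07). Gata2, its relative, had 0 counts in every 8-cell embryo and 33.7, 27.2 and 26.5 CPM in the blastocysts, at least 233-fold higher. Klf6, a zinc finger factor, also went from 0 in every 8-cell embryo to 63.2, 107 and 97.7 CPM, at least 715-fold higher. Tfap2a, an AP-2 factor, rose from 0.0397 ± 0.0591 to 80.8 ± 24.7 CPM, and Eomes, a T-box factor of the trophoblast, from 0.68 ± 1.07 to 56.3 ± 14.1 CPM.

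Cdx2, the homeobox factor needed to keep the trophectoderm, had 2.04 CPM in 8-cell embryo 1 and 0 in the other 3, against 18.3, 12.5 and 18.3 CPM in the blastocysts. All blastocysts were above all 8-cell embryos, with a log2 rise of 4.98 ± 1.81, but the adjusted p of 0.0476 stood at the threshold. The call was lost in 11 of 21 other settings. Tfap2c and Tead4, factors that act upstream of Cdx2, did not pass the test: Tfap2c had 91.7 ± 46.3 and 61.9 ± 21.7 CPM (adjusted p = 0.267) and Tead4 100 ± 17.5 and 52.6 ± 4.22 CPM (adjusted p = 0.0643). Both were present in every 8-cell embryo. For Tead4 every blastocyst was below every 8-cell embryo, and the 95% interval of its log2 change ran from -1.69 to -0.17. It was called lower in 3 of 21 alternatives. These were the fits on the 7 compared embryos, on the 12 intact embryos and on 6 embryos without a replicate block.

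The epithelial products of the trophectoderm rose with its regulators. Krt8, a keratin of simple epithelia, had 6.79, 7.22, 0 and 0 CPM in the 8-cell embryos and 547, 471 and 812 CPM in the blastocysts. Its partner Krt18 had 7.59, 13.4, 5.17 and 1.75 CPM at the 8-cell stage and 718, 588 and 1165 CPM at the blastocyst stage. For both keratins blastocyst 3 was the highest and every blastocyst was above every 8-cell embryo (log2 rises 7.43 ± 1.28 and 6.88 ± 0.68). Fabp3, a fatty acid carrier, rose from 12.2 ± 7.43 to 584 ± 185 CPM. Lrp2, the endocytic receptor megalin, had 0.118, 4.87, 0.584 and 0 CPM and then 848, 654 and 810 CPM. Dppa1 was seen in a single 8-cell embryo, at 0.501 CPM, and reached 587, 528 and 674 CPM in the blastocysts. Id2, an inhibitor of helix-loop-helix factors, rose from 2.52 ± 3.05 to 741 ± 123 CPM. The exception was Hand1, a factor of later trophoblast, which fell from 66.8, 6.89, 18.1 and 24.3 CPM to 0, 1.42 and 0.061 CPM (log2 change -5.87 ± 1.34, adjusted p = 0.00225).

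**Figure D2:**
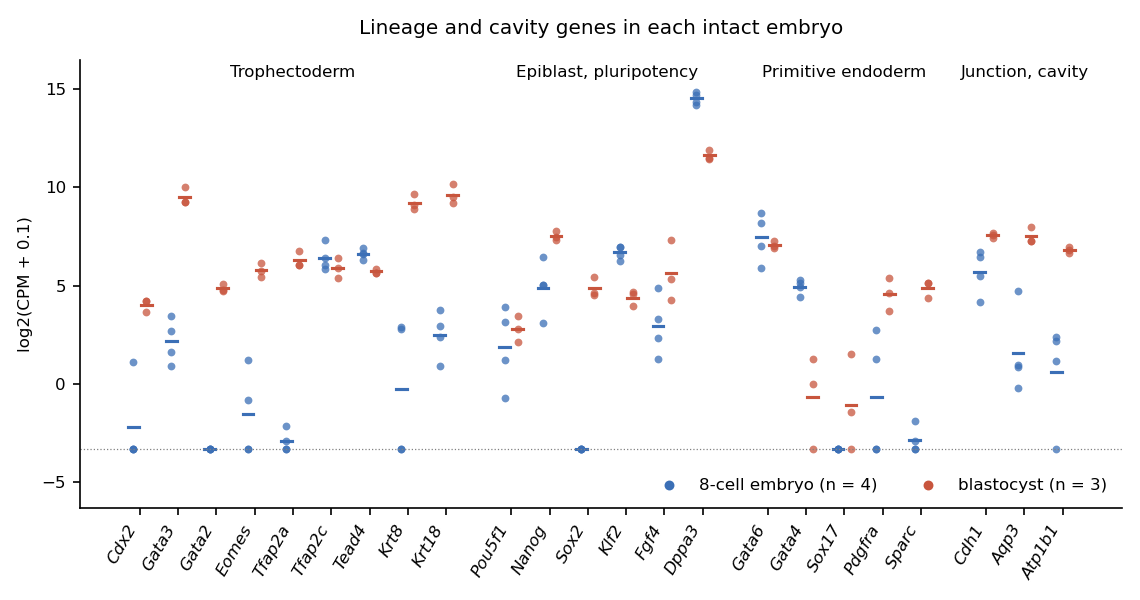
Level of 23 lineage, junction and cavity genes in each intact embryo, as log2(CPM + 0.1); each point is 1 embryo (8-cell n = 4, blastocyst n = 3), the bar is the mean of the points, and the dotted line marks 0 counts. Gata3, Krt8 and Krt18 are separated by stage, Tfap2c, Pou5f1 and Gata6 overlap between stages, and Gata4 is high in all 4 8-cell embryos.

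Genes of the epiblast and of pluripotency were split between rises and falls. Of 29 tested, 10 rose (34.5%, against 15% of all genes) and 7 fell (24.1%, against 11.9%). The median log2 change of 0.15 changed sign among the 21 other settings (-0.40 to 0.93). Sox2, a partner of Oct4 in the epiblast, had 0 counts in all 8-cell embryos and 43.4, 23.2 and 24.6 CPM in the blastocysts, at least 243-fold higher. Nanog, a homeobox factor of the epiblast, had 87.2, 32.7, 8.34 and 32.4 CPM and then 178, 221 and 157 CPM. The Nanog groups did not overlap (log2 rise 2.20 ± 0.71, adjusted p = 0.0313), but the call was lost in 9 of 21 settings. Fgf4, the growth factor that epiblast cells send to the other lineages, had 4.99, 9.64, 29.1 and 2.29 CPM at the 8-cell stage. It had 19.2, 161 and 40.2 CPM in the blastocysts, which overlapped with 8-cell embryo 3, and its call (adjusted p = 0.0399) was lost in 11 settings. Tfcp2l1, a factor of the naive state, rose from 49.8 ± 30.1 to 487 ± 11.2 CPM, and Sall4 from 199 ± 10.7 to 890 ± 124 CPM.

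Other pluripotency genes were highest in the 8-cell embryo. Dppa3 (Stella), a maternal protein that protects DNA methylation marks, had 29926, 26628, 20511 and 18550 CPM in the 8-cell embryos and 2917, 3852 and 2756 CPM in the blastocysts. It fell by 2.91 ± 0.20 on the log2 scale and had, per transcript length, the highest mean TPM of all genes at the 8-cell stage (57607 ± 10607). Klf2 had 94.4, 76.1, 124 and 124 CPM and then 23.4, 15.3 and 25.4 CPM, a fall that kept the stages apart (adjusted p = 0.00184). Sox15 fell from 290 ± 24.3 to 5.42 ± 0.933 CPM and Fbxo15 from 2545 ± 322 to 309 ± 63.2 CPM. Pou5f1 (Oct4) read 8.68, 0.505, 2.21 and 15 CPM in the 8-cell embryos and 6.92, 4.25 and 10.8 CPM in the blastocysts, without a call (adjusted p = 0.904). Its values are uncertain, since Pou5f1 has near-identical copies in the genome and the counting of reads with several matches was not given in the sources used here.

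In the primitive endoderm group 7 of 19 tested genes rose (36.8%, against 15% of all genes) and 1 fell (5.26%, against 11.9%). The other 11 were not called, and the median log2 change of 3.40 ran from 1.44 to 4.15 over the settings. The summed CPM of the whole list was 1058 ± 211 in 8-cell embryos and 795 ± 43.9 in blastocysts, with overlap. The risen members included genes of the basement membrane that this lineage lays down. Sparc, a matrix protein, had 0, 0, 0.167 and 0.0337 CPM and then 20.7, 34.5 and 35.3 CPM. Lamb1, a laminin chain, rose from 3.4 ± 3.76 to 82.4 ± 30 CPM. None of Gata6, Gata4 and Sox17, transcription factors of the lineage, was called in the main comparison. Gata6 had 411, 127, 59.5 and 295 CPM at the 8-cell stage and 120, 153 and 130 CPM at the blastocyst stage (adjusted p = 0.176), and was called lower only without 8-cell embryo 3 (adjusted p = 0.0158). Gata4 had 34.3, 21.4, 38.4 and 30.2 CPM in the 8-cell embryos and 0, 0.876 and 2.32 CPM in the blastocysts; the groups did not overlap, yet the change did not pass the test (adjusted p = 0.101). It was called lower in 7 of 21 alternatives (smallest adjusted p = 2.41e-05). These were limma-voom, the 3 TPM fits, the fit on the 7 compared embryos and both fits on 6 of them, with and without a replicate block. Sox17 had 0 counts in 4 of 4 8-cell embryos and in blastocyst 1, and reached 2.75 CPM in blastocyst 3. Pdgfra, the receptor that marks this lineage, had 2.23 ± 3.1 and 26.5 ± 14.4 CPM (adjusted p = 0.158) and was called higher in 4 alternatives, limma-voom and the 3 TPM fits. Cited1 was the member that fell, from 664 ± 153 to 56.2 ± 3.94 CPM.

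Junction and polarity genes rose together with the epithelial genes. Of 38 tested, 17 rose (44.7%, against 15% of all genes) and 1 fell (2.63%, against 11.9%). The median log2 change was 1.81. Gja1 (connexin 43), a gap junction channel, had 625, 284, 313 and 550 CPM and then 3513, 3666 and 1535 CPM. E-cadherin, Cdh1, which holds blastomeres together at compaction, had 103, 18, 44.3 and 85.9 CPM at the 8-cell stage and 202, 187 and 173 CPM in blastocysts (log2 rise 1.58 ± 0.41, adjusted p = 0.00657). Cldn7, a tight junction claudin, rose from 38.3 ± 16.2 to 187 ± 26.2 CPM. Crb3, a determinant of the apical membrane, was the member that fell, from 134 ± 48.2 to 37.9 ± 12.9 CPM. Other risen members were the desmosome genes Dsp (2.56 ± 2.93 to 94.4 ± 15.9 CPM) and Dsg2 (2.26 ± 4.44 to 126 ± 22.4 CPM). Tjp1 (ZO-1), the tight junction scaffold, had 67.2 ± 17.8 and 53.7 ± 2.41 CPM and was not called (adjusted p = 0.599).

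Of 18 tested pumps and channels of the kind that serve the blastocoel, 4 were higher (22.2%) and 3 lower (16.7%), against 15% and 11.9% of all genes. Atp1b1, a beta subunit of the sodium pump, had 4.43, 5.02, 0 and 2.16 CPM and then 126, 101 and 113 CPM. Its relative Atp1b3 went the other way, from 313, 219, 308 and 437 CPM to 108, 106 and 111 CPM. Aqp3, a water and glycerol channel, had 26.3, 1.84, 0.751 and 1.72 CPM in the 8-cell embryos, with embryo 1 set apart, and 254, 156 and 156 CPM in the blastocysts. Aqp5, another water channel, was present in all 8-cell embryos (38.4, 90.3, 106 and 94.1 CPM) and had 0 counts in all blastocysts, at least 368-fold lower. Slc12a2, a sodium, potassium and chloride cotransporter, fell from 523 ± 196 to 16.4 ± 4.31 CPM. Atp12a, a proton and potassium pump, had 0 counts in all 8-cell embryos and 29, 6.13 and 14.9 CPM in blastocysts.

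Actin and cortex genes showed 29 rises (65.9%, against 15% of all genes) and no fall (against 11.9%) among 44 tested. Their median log2 change was 2.08. In the fit without 8-cell embryo 1 the counts were 28 and 0. Actb, cytoplasmic beta-actin, had 1285, 400, 366 and 319 CPM in the 8-cell embryos and 38927, 27947 and 27439 CPM in the blastocysts. Embryo 1 was the highest of its group and the stages were far apart, with a log2 rise of 5.73 ± 0.55 (adjusted p = 1.61e-06). By TPM, which corrects for length, Actb went from 470 ± 351 to 36535 ± 7624 and had the second highest mean of all genes in blastocysts. Myh9, a nonmuscle myosin heavy chain, rose from 11.6 ± 3.94 to 429 ± 217 CPM, and Tmsb10, which binds actin monomers, from 279 ± 82.5 to 1259 ± 256 CPM. Cfl1 and Pfn1, which turn actin filaments over, had means of 482 and 530 CPM and of 762 and 1075 CPM and were not called.

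The Hippo pathway tells outer from inner cells by controlling the coactivator YAP. Most of its genes did not pass the test: of 28 tested, 2 rose (7.14%, against 15% of all genes) and 5 fell (17.9%, against 11.9%). On log2(TPM + 1) 8 were higher and 3 lower, and the median log2 change of -0.29 changed sign among the settings (-0.51 to 0.30). Yap1 itself fell, from 82, 95.1, 123 and 106 CPM to 32.5, 46.9 and 45.3 CPM (log2 change -1.29 ± 0.29, adjusted p = 0.00199), a call lost in 3 of 21 settings. Nf2, an upstream activator of the pathway, fell from 83.7 ± 18.8 to 28.5 ± 9.27 CPM. Tead2, a DNA-binding partner of YAP, rose from 0.0688 ± 0.0829 to 20.9 ± 8.86 CPM, and Wwc1 (Kibra) from 4.66 ± 4.14 to 31.2 ± 3.01 CPM.

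Among growth factor ligands, receptors and feedback genes 15 of 37 rose (40.5%, against 15% of all genes) and 2 fell (5.41%, against 11.9%). The median log2 change was 1.88. On the ligand side, Wnt7b had 0 counts in all 8-cell embryos and 23.3, 18.7 and 26.9 CPM in the blastocysts, at least 184-fold higher. Pdgfa, the ligand of Pdgfra, had 28.6, 14.6, 6.88 and 17.2 CPM and then 200, 180 and 163 CPM. Fgfr4, a receptor, fell from 14.8 ± 4.15 to 1.52 ± 0.909 CPM, a call lost in 5 settings, and Socs3, a brake on cytokine signalling, fell from 28.5 ± 12.9 to 0.224 ± 0.387 CPM.

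Genes of cholesterol and fatty acid synthesis formed the metabolic group with the largest share of rises: 26 of 39 tested rose (66.7%, against 15% of all genes) and 1 fell, with a median log2 change of 2.34. This pathway builds sterols from acetyl-CoA through mevalonate and is known to be driven by the SREBP factors, which INSIG proteins hold back in the endoplasmic reticulum. Insig1, the feedback protein of the pathway, had 8.56, 7.11, 2.59 and 18.8 CPM and then 4006, 1808 and 1529 CPM. Blastocyst 1 was the highest, and the lowest blastocyst was far above the highest 8-cell embryo (log2 rise 8.04 ± 0.82, adjusted p = 3.14e-06). Pmvk, phosphomevalonate kinase, had 13, 2.56, 6.09 and 3.3 CPM and then 125, 113 and 131 CPM.

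Among members that serve fatty acid synthesis, Scd2, a desaturase, had 1.53, 0, 0 and 3.07 CPM and then 521, 342 and 293 CPM, and Acly, which makes cytosolic acetyl-CoA, 49.9, 44.7, 31.9 and 52.6 CPM and then 330, 229 and 207 CPM. Srebf2, the SREBP gene of the sterol arm, rose from 18.9 ± 27.6 to 79.4 ± 17.2 CPM (adjusted p = 0.0199), with 60.4 CPM in 8-cell embryo 3. Idi1, an isomerase of the pathway, was not called, with 27.2 ± 13.4 and 26.3 ± 10.9 CPM (adjusted p = 0.952). Fdft1, squalene synthase, was the member that fell, from 276, 233, 235 and 211 CPM to 175, 83.8 and 97.7 CPM; this call (adjusted p = 0.0224) was lost in 6 settings. Across the settings the number of risen members ranged from 21 to 32, and it was 24 without 8-cell embryo 1.

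**Figure D3:**
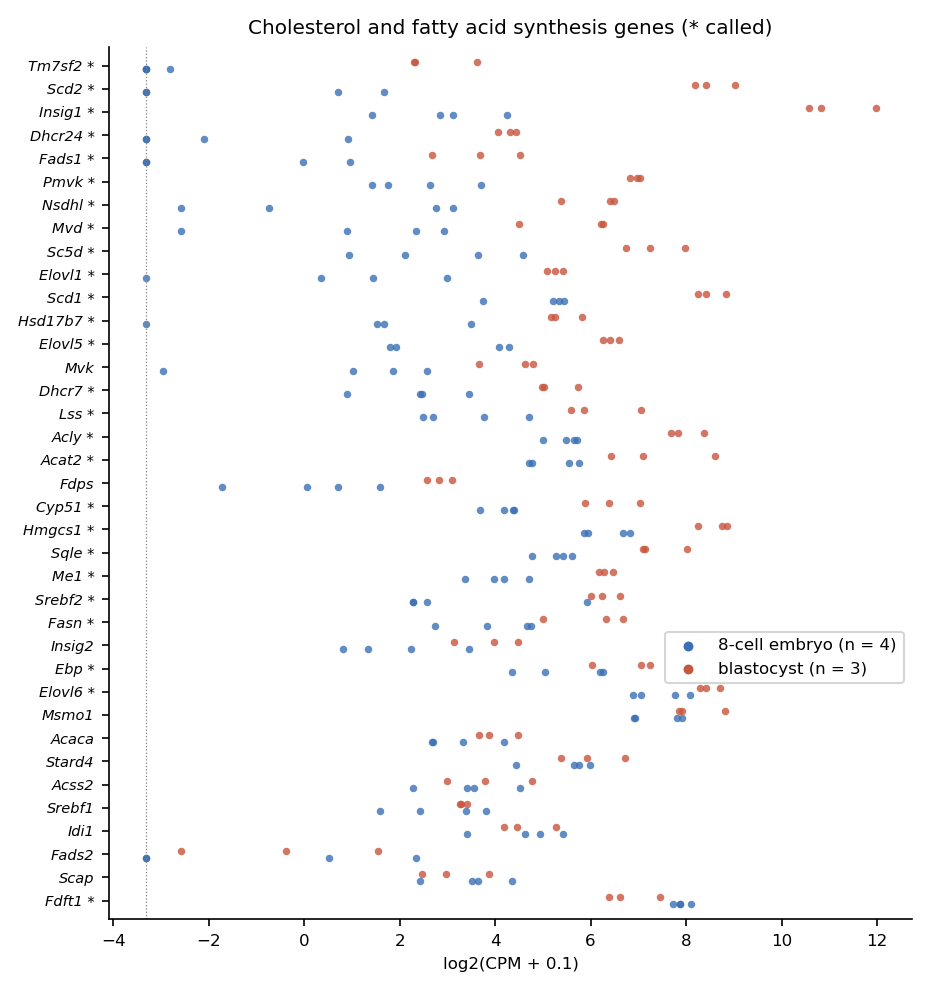
Level of 37 of the 39 tested genes of cholesterol and fatty acid synthesis in each intact embryo, as log2(CPM + 0.1), ordered by the fitted change; asterisks mark called genes and the dotted line marks 0 counts. Of the 37 genes drawn, 25 were called higher in blastocysts and 1, Fdft1, lower, and Scd2 and Insig1 show wide gaps between the stages.

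Because these genes moved together, the 250 bases before their start sites were searched on both strands for short motifs. RefSeq windows (GRCm38.p6) were matched by symbol for 20 of the 26 risen genes. The motif CCAAT, bound by the factor NF-Y, was found in the windows of 17 of these 20, against 41% of 11385 tested genes and 37.5% of all 27025 genes with a window. The E-box CACGTG was found in 5 of 20 against 9.47% of tested genes, and TCACNCCAC, a form of the sterol response element, in 1 of 20 against 1.34%. A match is only a description of the letters in the window. The windows of the 3 matching genes of smallest p are shown 5′ to 3′ on the strand of the gene, with matches to CCAAT (or ATTGG on the other strand) and CACGTG in capitals. They lie at chr3:89454291-89454540 on the plus strand for Pmvk, at chr5:28071162-28071411 on the plus strand for Insig1 and at chr9:42264301-42264550 on the minus strand for Sc5d, a sterol desaturase whose mean rose from 10.6 to 170 CPM. Pmvk had 2 windows in the table, of which the first is printed.
Pmvk: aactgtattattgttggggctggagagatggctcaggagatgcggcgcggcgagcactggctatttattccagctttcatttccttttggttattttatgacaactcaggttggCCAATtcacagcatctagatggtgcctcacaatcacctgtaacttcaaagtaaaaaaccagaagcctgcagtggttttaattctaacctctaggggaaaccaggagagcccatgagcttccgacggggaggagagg
Insig1: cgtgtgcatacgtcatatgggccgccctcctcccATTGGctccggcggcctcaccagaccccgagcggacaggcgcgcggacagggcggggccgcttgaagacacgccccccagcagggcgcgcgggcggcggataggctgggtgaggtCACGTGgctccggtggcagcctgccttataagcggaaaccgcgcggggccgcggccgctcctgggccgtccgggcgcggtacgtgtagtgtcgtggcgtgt
Sc5d: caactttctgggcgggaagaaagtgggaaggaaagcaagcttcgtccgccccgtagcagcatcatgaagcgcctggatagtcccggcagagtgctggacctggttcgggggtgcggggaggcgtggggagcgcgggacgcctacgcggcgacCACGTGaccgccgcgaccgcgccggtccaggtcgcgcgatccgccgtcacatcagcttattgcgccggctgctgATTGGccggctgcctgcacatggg

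For comparison, CCAAT was found in 7 of 18 risen trophectoderm genes with a window. CATTCC, the motif bound by TEAD factors, was found in 2 of these 18, against 12.9% of tested genes.

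Genes of glucose use rose in 17 of 38 cases (44.7%, against 15% of all genes) and fell in 5 (13.2%, against 11.9%). Their median log2 change was 2.04. Hk2, a hexokinase that commits glucose to glycolysis, had 32.2, 9.64, 22.6 and 37.1 CPM and then 553, 439 and 539 CPM. Slc2a3, a glucose transporter, rose from 29 ± 3.89 to 213 ± 9.45 CPM, and Pkm, pyruvate kinase, from 5.91 ± 3.82 to 141 ± 28.8 CPM. Gapdh read 0 in all 8-cell embryos and 12.4, 21.4 and 21.2 CPM in blastocysts; the gene has many processed copies, so its counts are uncertain. Both subunits of the carrier that takes pyruvate into mitochondria fell: Mpc2 had 1317, 1125, 1254 and 1037 CPM and then 126, 113 and 86.9 CPM, and Mpc1 went from 183 ± 16.8 to 56.7 ± 11.8 CPM.

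The nuclear genes of oxidative phosphorylation rose in 34 of 78 cases (43.6%, against 15% of all genes) and fell in 6 (7.69%, against 11.9%). Their median log2 change was 0.44. Ndufb9, a complex I subunit, had 54.5, 56.6, 61.4 and 35.3 CPM and then 229, 244 and 244 CPM, and Ndufab1 rose from 77.1 ± 6.87 to 228 ± 9.31 CPM. Uqcrb of complex III and Cox7c of complex IV fell, by 0.94 ± 0.21 and 0.87 ± 0.22 on the log2 scale, but both calls were lost in all 3 TPM fits, in which 60 of the 78 genes were higher and 0 lower. Of the 13 genes encoded in the mitochondrion itself, 7 fell (53.8%, against 11.9% of all genes) and none was called higher. mt-Nd2 had 6836, 7859, 9733 and 5210 CPM and then 2857, 3029 and 1930 CPM. mt-Cytb had 16519 ± 3505 and 15868 ± 4384 CPM, with a 95% interval of the log2 change from -0.51 to 0.39. Summed over mitochondrially encoded genes, the share of counts was 4.37% ± 0.958 and 4.2% ± 0.691 (exact permutation p = 0.857).

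The machinery that makes ribosomes and proteins fell as a share of RNA. Ribosomal protein genes took 9.82% ± 0.46 of counts in 8-cell embryos and 5.85% ± 0.417 in blastocysts, without overlap. Of 87 tested cytosolic ribosomal protein genes, 69 fell (79.3%, against 11.9% of all genes) and 1, Rps27rt, rose, a call lost in 3 settings; the median log2 change was -1.14 and ran from -1.23 to -0.61 over the settings. Rpl37a had 1690, 1403, 1656 and 1889 CPM and then 441, 451 and 471 CPM. Rps26 fell from 2958 ± 203 to 984 ± 69.2 CPM. These genes have processed copies, so single values are uncertain where reads matched several places.

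Ribosome biogenesis genes fell in 33 of 57 cases (57.9%, against 11.9% of all genes) and rose in 2 (3.51%, against 15%). Their median log2 change was -1.11. Npm1, nucleophosmin of the nucleolus, had 6557, 6656, 6226 and 5724 CPM and then 1156, 1967 and 1184 CPM. Brix1 and Wdr75, assembly factors of the ribosomal subunits, fell by 2.45 ± 0.21 and 2.54 ± 0.20 on the log2 scale. Rrn3, an initiation factor of RNA polymerase I, was an exception and rose from 168 ± 29.1 to 459 ± 79.6 CPM. Translation factors fell in 26 of 42 cases (61.9%, against 11.9% of all genes) and rose in 3 (7.14%, against 15%), with a median of -1.08. Eif4e, the protein that binds the mRNA cap, had 1861, 1851, 2033 and 2086 CPM and then 177, 252 and 184 CPM. Eif1, a start codon factor, had 1657, 1547, 1730 and 1557 CPM and then 256, 258 and 264 CPM. Eif4a1, the helicase of cap-dependent initiation, rose from 376 ± 60.5 to 1129 ± 226 CPM, and Eif4ebp1, which restrains Eif4e, from 127 ± 29.2 to 298 ± 50.6 CPM.

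**Figure D4:**
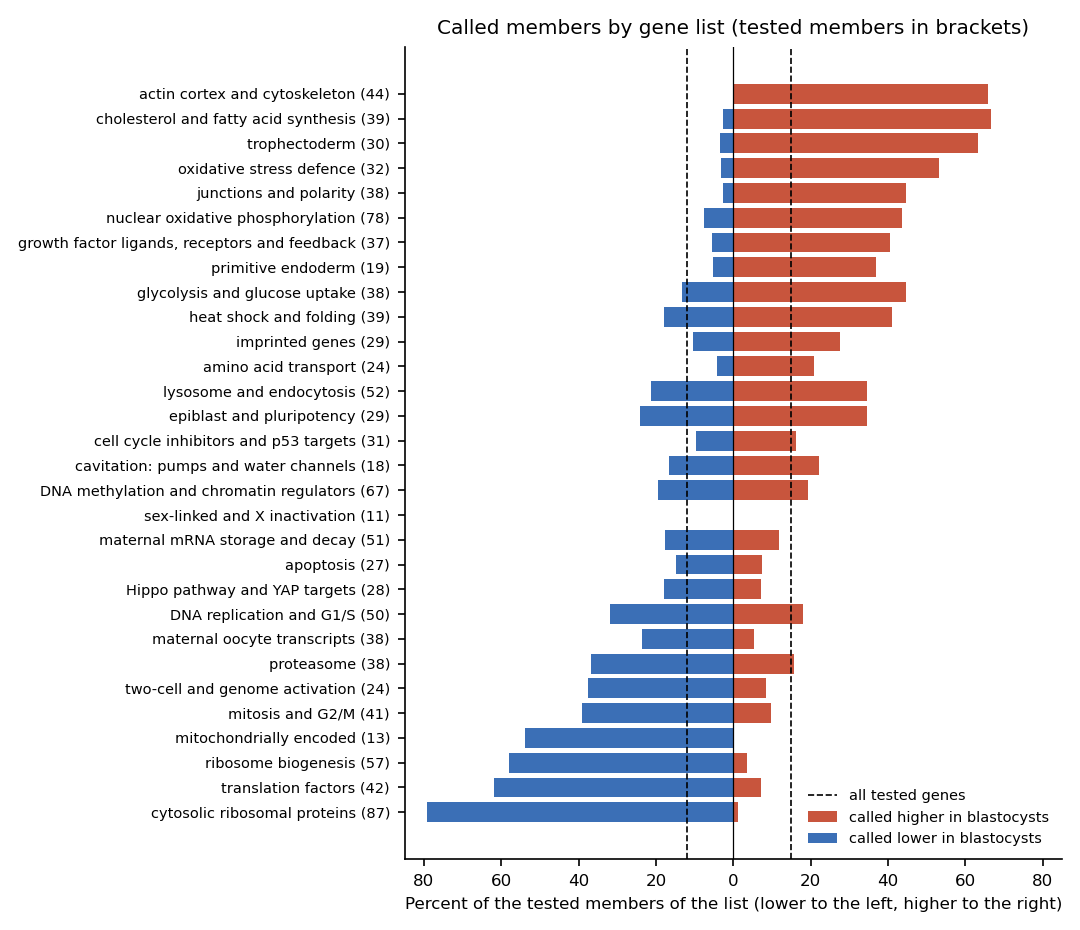
Percent of tested members called higher (right) and lower (left) in blastocysts for each gene list with at least 10 tested members, whose number is in brackets; dashed lines mark 15% and 11.9%, the shares over all 15875 tested genes. Actin, cholesterol and trophectoderm genes extend to the right and ribosomal protein, translation and ribosome biogenesis genes to the left.

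Of 38 tested transcripts known as products of the oocyte, 9 fell (23.7%, against 11.9% of all genes) and 2 rose (5.26%, against 15%). The other 27 were not called, and the median log2 change of -3.84 ran from -4.35 to -1.32 over the settings. The summed CPM of the whole list was 525 ± 181 and 670 ± 57.6. Khdc3, part of a protein complex beneath the oocyte membrane, made up most of it in blastocysts and rose from 35.1, 25, 6.17 and 15.2 CPM to 396, 412 and 491 CPM. Padi6, of that complex, fell from 41.4 ± 7.97 to 3.22 ± 2.21 CPM, and Omt2b from 148, 142, 40.3 and 45.9 CPM to 0, 1.62 and 0.366 CPM, a call lost without blastocyst 1 or 3. Zp3, a protein of the zona pellucida, had 2.77, 34.3, 40.3 and 7.52 CPM and then 0, 2.22 and 1.95 CPM, a call (adjusted p = 0.0335) that was lost in 9 settings. Gdf9, an oocyte growth factor, had 4.31 ± 0.45 and 0.978 ± 0.882 CPM (adjusted p = 0.564), and Nlrp5, of the maternal complex, 2 ± 2.11 and 0.447 ± 0.774 CPM (adjusted p = 0.607). Gdf9 was lower in every blastocyst than in any 8-cell embryo and was called lower in 2 of 21 alternatives, both on TPM (smallest adjusted p = 0.0401).

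Genes of the two-cell stage and of genome activation fell in 9 of 24 cases (37.5%, against 11.9% of all genes). They rose in 2 (8.33%, against 15%), and the median log2 change of -3.46 ran from -3.78 to -0.91 over the settings. Obox6, an oocyte-type homeobox gene, had 1658, 1728, 1957 and 2667 CPM in the 8-cell embryos and 4.47, 0 and 1.22 CPM in the blastocysts (log2 change -10.07 ± 1.33). Trim43b had 1858, 1714, 2039 and 2756 CPM and then 2.31, 0.539 and 2.07 CPM, while its relative Trim43a kept 166, 104 and 268 CPM in the blastocysts, from 2427, 1853, 2635 and 3467 CPM. Near-identical copies make the split between such relatives uncertain. Zscan4c, Zscan4d and Zscan4f, markers of the late two-cell stage, were below the filter or at 0. Hsp90aa1, a chaperone transcribed early in genome activation, rose from 2856 ± 778 to 7015 ± 584 CPM.

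The steepest falls otherwise came from genes on none of the lists. Dynap had 58.7, 107, 67.9 and 112 CPM and then 0 counts in every blastocyst, at least 386-fold lower. Foxa1, a pioneer transcription factor, had 199, 75.3, 70.2 and 35.2 CPM and then 0, 0 and 0.061 CPM, a call lost when any 1 blastocyst was left out. Bex6 fell from 99.6 ± 19.8 to 0.122 ± 0.211 CPM. Tlcd4, Exoc3l2, Plcd4 and Allc, at means of 80.1, 131, 48 and 114 CPM in 8-cell embryos, were each below 1 CPM on average in blastocysts. Among abundant genes, Gcsh, the lipoate carrier of glycine cleavage, fell from 3883 ± 1057 to 205 ± 48.2 CPM. Timd2 fell from 10472 ± 2906 to 2386 ± 1375 CPM, Eloc, an elongin subunit, from 6251 ± 1176 to 813 ± 108 CPM, and Prps1, which makes the precursor of nucleotides, from 3633 ± 912 to 490 ± 17.5 CPM.

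The steepest rises outside the lists included Sdc4, a heparan sulfate proteoglycan of the cell surface, with 0, 3, 0 and 0 CPM and then 2182, 839 and 1777 CPM. Ptges, a prostaglandin E synthase, rose from 0.598 ± 0.69 to 158 ± 39.5 CPM, and Zc3hav1, an RNA-binding antiviral protein, from 3.19 ± 2.62 to 765 ± 199 CPM. Rap2b, a small GTPase, had 2.74, 3.93, 0.0834 and 0.0674 CPM and then 644, 224 and 226 CPM. Ogdhl rose from 0.735 ± 0.512 to 130 ± 54.5 CPM. Of the abundant genes that rose, Malat1, a nuclear noncoding RNA, had 826, 461, 269 and 339 CPM and then 5130, 1929 and 3103 CPM. Ftl1, the ferritin light chain, went from 129 ± 66.4 to 1687 ± 887 CPM, with blastocyst 3 the highest.

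Of 41 genes of mitosis, 16 fell (39%, against 11.9% of all genes) and 4 rose (9.76%, against 15%). Of 50 genes of DNA replication, 16 fell (32%) and 9 rose (18%). On log2(TPM + 1) the calls were 13 lower and 10 higher for mitosis and 10 lower and 15 higher for replication, and both medians (-0.30 and -0.22) changed sign. Ccna2, cyclin A2, had 421, 686, 695 and 608 CPM and then 114, 109 and 107 CPM, and Cenpe, a kinetochore motor, fell from 914 ± 105 to 161 ± 15.7 CPM. Top2a, topoisomerase II, rose from 206 ± 42.5 to 390 ± 88.2 CPM. Lig1, the replicative DNA ligase, rose from 11.8 ± 10.6 to 158 ± 10.9 CPM, while Gins1 and Rpa2 fell by 1.77 ± 0.23 and 1.75 ± 0.23 on the log2 scale. Among inhibitors and p53 targets 5 of 31 rose (16.1%) and 3 fell (9.68%), shares near the 15% and 11.9% over all genes. Cdkn1b (p27) had 1.71, 0, 0.0417 and 0.506 CPM and then 52, 44 and 32.7 CPM, whereas Cdkn1a (p21) had 36 ± 14.7 and 19.8 ± 3.08 CPM and was not called (adjusted p = 0.212). Trp53 rose from 7.78 ± 5.89 to 37.5 ± 8.09 CPM. In the apoptosis list 2 of 27 rose (7.41%, against 15% of all genes) and 4 fell (14.8%, against 11.9%), and on log2(TPM + 1) 11 were higher and 3 lower. Mcl1, a survival factor, fell from 374 ± 40.1 to 139 ± 27.9 CPM.

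Of 67 regulators of DNA methylation and chromatin, 13 were called higher and 13 lower (19.4% each, against 15% and 11.9% of all genes). On log2(TPM + 1) these counts were 23 and 9, and the median log2 change turned from -0.26 to 0.29. Tet2, which oxidises methylcytosine, had 27.8, 9.38, 24.6 and 6.71 CPM and then 1117, 640 and 587 CPM, and Kdm6b, an H3K27 demethylase, rose from 20.2 ± 7.32 to 360 ± 134 CPM. Uhrf1, which guides maintenance methylation, rose from 1.16 ± 1.77 to 66.8 ± 6.12 CPM, and Dnmt3b, a de novo methyltransferase, from 16 ± 10.6 to 111 ± 26.7 CPM. Dnmt3l, the cofactor of de novo methylation, had 60.3 ± 26.5 and 41.7 ± 4.17 CPM (adjusted p = 0.224). Sirt1, a deacetylase, fell from 188 ± 62.7 to 39.9 ± 9.09 CPM, and H3f3a, which encodes histone H3.3, from 714 ± 40.2 to 222 ± 32.5 CPM. Of 29 imprinted genes 8 rose (27.6%, against 15% of all genes) and 3 fell (10.3%, against 11.9%). Kcnq1ot1 rose from 6.7 ± 3.15 to 72.4 ± 7.41 CPM and Impact from 26.1 ± 22.6 to 212 ± 92.3 CPM, while Usp29 fell from 55 ± 33.1 to 0.655 ± 1.07 CPM and Sgce from 26.2 ± 15.8 to 0.605 ± 0.61 CPM. The strand setting of the counting was not given in the sources used here, so Kcnq1ot1, which is antisense to another gene, is uncertain. Xist, the RNA that coats the inactive X, ranged from 0 to 199 CPM in 8-cell embryos and from 11.9 to 374 CPM in blastocysts and was not called. It was at 0 in 8-cell embryos 1 and 3, which had the Y-linked RNAs. The highest value at each stage was in an embryo without them, 8-cell embryo 4 and blastocyst 3.

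Of 39 heat shock and folding genes 16 rose (41%, against 15% of all genes) and 7 fell (17.9%, against 11.9%). Calr, a chaperone of the endoplasmic reticulum, rose, with 67.9, 51.9, 32.8 and 47.5 CPM and then 864, 808 and 778 CPM, and Hspa5 (BiP), of the same compartment, rose from 94.1 ± 22.4 to 619 ± 61.2 CPM. Tcp1, a subunit of the cytosolic chaperonin, fell from 581 ± 52.1 to 187 ± 40.5 CPM. Oxidative stress genes rose in 17 of 32 cases (53.1%, against 15% of all genes) and fell in 1 (3.12%, against 11.9%). Glrx, glutaredoxin, was seen in a single 8-cell embryo, at 0.0417 CPM, and had 137, 149 and 123 CPM in the blastocysts. Sod1, the cytosolic superoxide dismutase, rose from 180 ± 31.2 to 1021 ± 242 CPM, and Prdx3, a mitochondrial peroxiredoxin, was the member that fell, from 198 ± 33.8 to 92.2 ± 18.2 CPM. Of 38 proteasome genes 14 fell (36.8%, against 11.9% of all genes) and 6 rose (15.8%, near the 15% of all genes). The interval stayed within 2-fold either way for 20, against 6.1% of all genes. On log2(TPM + 1) the balance turned to 7 lower and 11 higher, with a median log2 change of 0.15. Psma6 fell from 1522 ± 88.6 to 440 ± 82.5 CPM, and Psme2, an activator subunit, rose from 16.9 ± 2.57 to 92.8 ± 11.1 CPM.

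Lysosome and endocytosis genes rose in 18 of 52 cases (34.6%, against 15% of all genes) and fell in 11 (21.2%, against 11.9%). Cltc, the clathrin heavy chain, had 105, 112, 89.7 and 104 CPM and then 968, 827 and 875 CPM, and Hexa, a lysosomal hydrolase, rose from 2.52 ± 1.25 to 52.8 ± 17.7 CPM. Ctsc, cathepsin C, fell from 2360 ± 261 to 175 ± 65.7 CPM and Rab5a, a GTPase of early endosomes, from 411 ± 84.2 to 41.9 ± 9.8 CPM. Among amino acid transporters 5 of 24 rose (20.8%, against 15% of all genes) and 1 fell (4.17%, against 11.9%). Slc38a1, a glutamine transporter, rose from 0.289 ± 0.578 to 22.9 ± 5.47 CPM. The fall of Slc6a6, the taurine transporter, from 132 ± 49.2 to 66.5 ± 7.04 CPM (adjusted p = 0.0334) was lost in 12 settings. Regulators of mRNA storage and decay were higher in 6 of 51 cases (11.8%, against 15% of all genes) and lower in 9 (17.6%, against 11.9%), and on log2(TPM + 1) higher in 15 and lower in 4. Pum2, an RNA-binding repressor, had 474, 397, 400 and 394 CPM and then 136, 102 and 93.4 CPM; Cnot8, a deadenylase, fell from 254 ± 49.3 to 47.6 ± 8.03 CPM, and Igf2bp1, an mRNA-binding protein, rose from 31.4 ± 11.2 to 130 ± 19.4 CPM.

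Some abundant genes had an interval within 2-fold either way in CPM. Hsp90ab1, the constitutive cytosolic chaperone, had 3571, 2898, 2897 and 3622 CPM in the 8-cell embryos and 3297, 2944 and 3629 CPM in the blastocysts, with a 95% interval of the log2 change from -0.33 to 0.36. Dppa5a, an RNA-binding protein of pluripotent cells, had 3764 ± 1044 and 4339 ± 1368 CPM (interval -0.21 to 0.62), and mt-Co1 4620 ± 1307 and 4038 ± 747 CPM (interval -0.76 to 0.38). Both Dppa5a and Hsp90ab1 were called higher in all 3 TPM fits (smallest adjusted p 0.0041 and 0.0154, limma), with mean TPM of 13116 and 21653 for Dppa5a and of 2351 and 3432 for Hsp90ab1. Ncl, nucleolin, was called lower while its interval stayed within 2-fold, at 2092 ± 193 and 1309 ± 74.2 CPM; this call was lost in the 3 TPM fits. Of the 100 genes with the highest mean TPM at each stage, 60 were shared.

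Some features of the called genes played no part in the test. Protein-coding genes made up 95.9% of the higher and 96.5% of the lower genes matched to RefSeq, against 92.2% of tested genes. The median transcript length relative to the median tested gene, from the ratio of counts to deposited TPM, was 0.99 for higher and 0.98 for lower genes, with middle ranges of 0.60 to 1.61 and 0.58 to 1.58. With the genes in 5 bins of length, 13.7% were higher and 12.1% lower in the shortest bin, and 14.8% and 11.2% in the longest. The median log2 fold change was -0.06 in the shortest bin and 0.28 to 0.33 in the others. The G and C content of the 250 bases before the start had medians of 60% for higher, 58.8% for lower and 59.2% for tested genes.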

How the data were processed

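Whole embryos were measured one at a time by Smart-seq2. The deposited table held raw read counts per gene symbol (37229 genes), and a second deposited table held TPM values of 15625 genes, computed by the authors. The submitters' processing notes list HISAT2 and featureCounts, besides cutadapt, edgeR, FastQC and MultiQC, with GRCm39 as the build and no versions; annotation, strand setting and handling of reads with several matches are not given in the sources used here. Promoter windows and gene types came from RefSeq tables on GRCm38.p6, matched by symbol.

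Both sisters of a split pair were summed, which gave 18 units in 5 groups (13 residual degrees of freedom). After filterByExpr, libraries were scaled by TMM, and each gene was tested by edgeR's robust quasi-likelihood F test (two-sided, Benjamini-Hochberg adjusted p under 0.05). Calls at over 2-fold used glmTreat with a log2 limit of 1. The standard error of a log2 fold change is its size divided by the square root of F. CPM use the corrected library sizes. The scripts were tested on simulated data. The tools were edgeR 4.0.16, DESeq2 1.42.0 and limma 3.58.1, run in R 4.3.3. Lists (34) were described by counts and medians, without a set test.

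Named genes were a panel of 30, the 12 largest changes in each direction (called, no overlap, mean log2 CPM of at least 3, no clone names), the 8 most abundant genes with a change of at least 2 log2 units in each direction, up to 2 called genes of smallest p per list and direction, and the 8 most abundant genes with the interval within 2-fold; some are not reported here. Cfl1, Pfn1, Tjp1, Dsp, Dsg2, Srebf2, Idi1, Sc5d, Slc2a3, Pkm, Uhrf1, Dnmt3b and the Zscan4 genes fall outside this rule and were chosen after their values were seen. The comparison, lists and rules were chosen with earlier results of these data known. The labels do not say whether embryos came from separate litters, so p-values measure only the spread between these embryos. Alternatives covered the test, scaling, filter, depth, samples, TPM and each embryo left out.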

Additional observations from a re-analysis of the deposited data

Results flagged for a closer look

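In the 8-cell group a value was noted when its gap to the nearest embryo was too large a part of the group's range by Dixon's 95% limit for 4 samples. Of 183 measures 13 were noted. The limit would flag about 1 in 20 normally distributed measures by chance, a rate that does not hold for values at 0. Where all the other embryos were at 0, any count was flagged, so such a flag does not set an embryo apart. The groups of 3 blastocysts were not examined this way. 8-cell embryo 1 was flagged in 6 of the 13. It was the highest for Cdx2 (2.04 CPM, the others at 0), Aqp3 (26.3 CPM, the others 0.751 to 1.84), Actb (1285 CPM, the others 319 to 400), Allc (239 CPM, the others 59.6 to 79.2) and Pum2 (474 CPM, the others 394 to 400), and the lowest for Ncl (1804 CPM, the others 2171 to 2220). Embryo 2 was the highest for Sdc4 (3 CPM, the others at 0), Lrp2 (4.87 CPM, the others 0 to 0.584) and Slc38a1 (1.16 CPM, the others at 0). Embryo 3 was the only one with counts of Dppa1 (0.501 CPM), Oas1e (0.25 CPM) and Glrx (0.0417 CPM). Embryo 4 was the lowest for mt-Atp6 (145 CPM, the others 227 to 240).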

How the results depend on the processing

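Called genes numbered 2384 higher and 1888 lower; genes called in both fits kept their direction in each of the 21 alternatives. Limma on TPM gave 4465 higher genes (pseudocount 1), 4289 (pseudocount 0.1) and 4137 (mean TPM of at least 1), and shares of higher calls of 71.5%, 71.8% and 71.3%. This share was 63.2% with limma-voom, 58.3% with RLE scaling, 46.5% with the 7 compared embryos alone and 50.9% with the 12 intact embryos. Genes within 2-fold numbered 968, and 643 with limma-voom, 3627 without a filter and 2109 with log2(TPM + 1). Leaving out each embryo gave 1794 to 2203 higher and 1470 to 1829 lower genes, shares of 53.5% to 55.4%, 1666 to 2205 genes over 2-fold and 873 to 1238 within it; it gave a difference in detected genes of 1666 to 2408, against 2109 with all embryos. The labels do not say whether replicate numbers pair the embryos. Same-numbered embryos had correlations of deviations of 0.0248, 0.00314 and -0.0298, and differently numbered ones ran from -0.0404 to 0.0409. So few embryos cannot decide whether the numbers pair them. With the replicate block (6 embryos) there were 1034 higher and 1393 lower genes, a share of 42.6%, 1146 over 2-fold and 446 within it; without the block in the same embryos, a fit added after seeing the data, there were 1810 and 1836, a share of 49.6%, 2217 over 2-fold and 576 within it. Of 161 named calls 134 were never lost. On TPM, with pseudocounts 1 and 0.1 and with the TPM minimum, the log2 change turned positive for Tfap2c (0.01, 0.02, 0.01), Gata6 (0.13, 0.14, 0.13), Dnmt3l (0.09 in each) and Gabarapl2 (0.02 in each). It turned negative for Pou5f1 without 8-cell embryo 2 (-0.24), 8-cell embryo 3 (-0.14) or blastocyst 3, and ranged from -0.24 to 0.94 over the embryos left out; for Xist it was -2.04 without blastocyst 3, in a range up to 2.10. Blastocyst 3 was the only blastocyst without Ddx3y and Eif2s3y. None of these log2 changes was called, and the cause was not tested. Over the alternatives the risen members ranged from 4 to 12 for primitive endoderm, 6 to 19 for growth factors, 9 to 24 for oxidative stress and 24 to 60 for nuclear oxidative phosphorylation, and the fallen oocyte genes from 4 to 17. Depth limits low genes: in the 8-cell group 3 counts correspond to 0.125 CPM, in blastocysts to 0.223 CPM.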
